A study of Mus musculus with 6 samples.

Results

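The genes described here are the inflammasome sensors other than NLRP3, with the LPS-sensing protease Casp4 and the pore-forming gene Gsdme. They were listed by name, by a rule that uses no measured value although earlier results of these data were known, and were found in the count table through the symbols of their Ensembl IDs: Naip2, Naip5, Naip6, Nlrc4, Nlrp1a, Nlrp1b, Aim2, Mefv, Casp4 and Gsdme. All 10 were among the 25751 genes of the table, and all 10 passed the filter on low counts that kept 14626 genes for testing.

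An inflammasome is a protein complex in which a sensor in the cytosol recognises a microbial product or a disturbance of the cell and activates caspase-1, either directly or through the adaptor ASC, the product of Pycard. Caspase-1 then cleaves the precursors of interleukin-1β and interleukin-18 and opens gasdermin D, whose pores release the cytokines and kill the cell by pyroptosis. Macrophages and related myeloid cells carry several sensors that work in parallel to NLRP3. NAIP proteins bind bacterial flagellin or secretion-system proteins and recruit NLRC4, NLRP1 proteins respond to proteases and to loss of DPP9, AIM2 binds DNA, pyrin (Mefv) detects inactive RhoA, and caspase-11 (Casp4) binds LPS itself.

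The study compared wild-type primary mouse myeloid cells with and without trimethylamine N-oxide (TMAO), a metabolite of dietary choline and carnitine that is made by gut bacteria and the liver. Gene counts came from poly(A)-selected RNA of 3 Control and 3 TMAO libraries, all at 24 h, with 37759007 to 41735109 counts per library. The labels give no dose, strain or age. They are also silent on whether the 3 libraries of a group stem from 1 culture or several, so every p-value below is set against a spread that may be technical. The treated libraries carry the name T-BMDM in the table and the untreated ones Control, and the labels do not say whether both were prepared in the same way, so that the preparation and the treatment cannot be told apart.

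General myeloid genes (Ptprc, Itgam, Csf1r, Spi1, Lyz2, Tyrobp, Fcer1g, Cd68) were detected in both groups, with a summed level of 43194 to 48138 CPM in Control (CPM: counts scaled to the same library total, here with edgeR's TMM factors) and 39633 to 48684 CPM in TMAO. Lyz2 made up most of that sum, and of the 8 genes Spi1 rose, Ptprc, Csf1r and Cd68 fell and 4 did not pass the test. Of 19 neutrophil markers tested, 16 rose and 2 fell, and their summed level went from 491–537 to 4572–5828 CPM. Of 16 monocyte markers, 13 rose and 2 fell, from 908–970.3 to 1710–1753 CPM in sum. Of 15 macrophage markers, 5 rose and 8 fell, with sums of 35167–37195 CPM and 32521–34960.3 CPM. Gpnmb, which fell (means of 18163 and 9799 CPM), and Apoe, which rose (7529 and 15284 CPM), made up most of both sums. The sums therefore do not show how the single markers moved. Among 10 B cell markers in the table, Pax5, Vpreb3 and Ebf1 had no counts in Control, and of 7 tested 4 rose and 1 fell. Their summed levels were 126–135 and 69.9–78.8 CPM, most of it Blnk, the gene that fell (means of 117 and 59.9 CPM). Of 11 dendritic cell markers tested, 7 rose and 2 fell (527–685 and 251–304 CPM in sum, Siglech and Cd209a without counts in Control). Most of that sum was Bst2, which fell (means of 566 and 239 CPM). Of 6 erythroid and megakaryocyte markers tested, 5 rose (Pf4, Itga2b, Gp9, Ppbp, Gata1) and 1 fell, the haemoglobin gene Hbb-bs. Their list summed to 43.9–65.9 and 353–537 CPM, most of it Pf4 (means of 50.9 and 383 CPM). Of 11 T and NK cell markers 3 were tested, of which 1 rose (Nkg7) and 2 fell (Cd4, Il7r). Their list summed to 360–389 and 222–288 CPM, most of it Il7r (means of 358 and 244 CPM). Cd3d, Cd3g, Trac, Ncr1 and Nkg7 had no counts in Control. The part of these differences in the results below was not tested, and in bulk RNA fewer cells of a type cannot be told apart from less RNA per cell.

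Of the 10 sensor genes, 3 were higher with TMAO (Mefv, Casp4, Gsdme), 4 were lower (Naip5, Naip6, Nlrp1a, Nlrp1b) and 3 did not pass the test (Naip2, Nlrc4, Aim2), at an adjusted p under 0.05 in edgeR's quasi-likelihood test over all genes. Across all genes tested, 65.7% were called, 33.0% higher and 32.7% lower, so the share of sensor genes called was close to the background. At least 2-fold changes were seen in 4 of the 10 (Naip6, Nlrp1a, Nlrp1b lower, Gsdme higher), against 30.4% of all genes. Tested against a fold of 1.5, 6 of the 10 were called, against 35.4% of all genes. In 7 of the 10 the values of the groups were fully apart, against 71.0% of all genes. The median log2 fold change was -0.06 over the 10 genes and 0.005 over all genes tested.

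**Figure D1:**
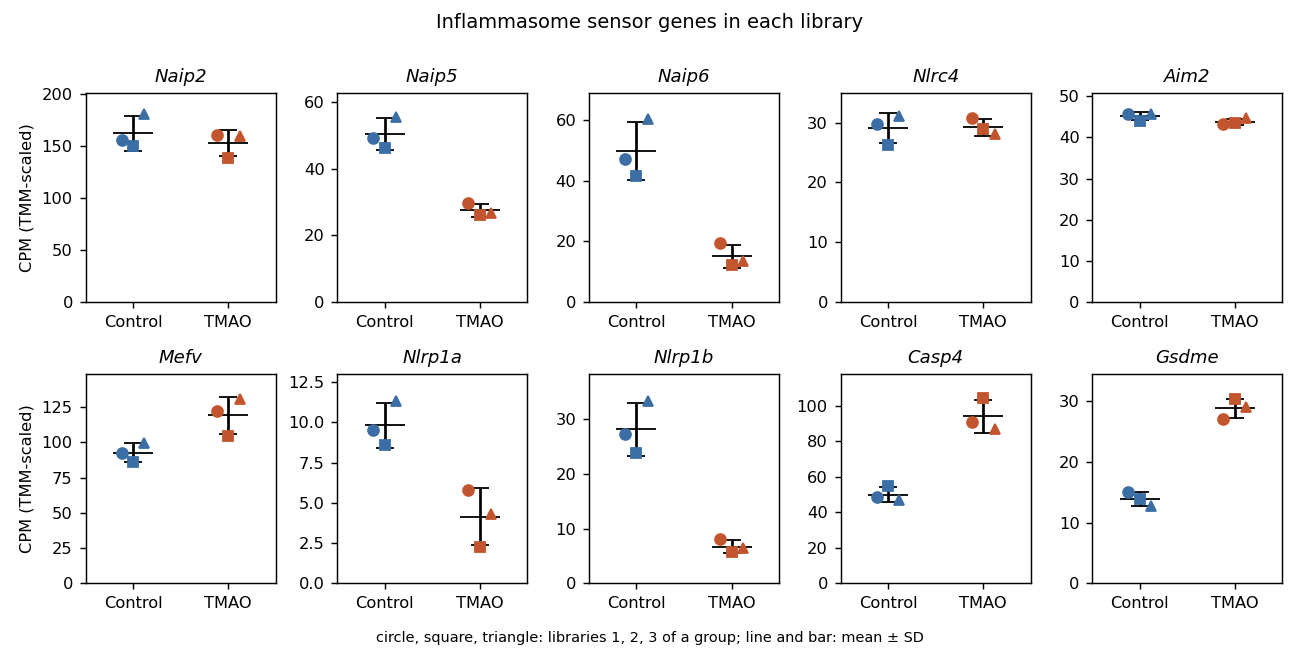
TMM-scaled CPM (y axes, from 0) of the 10 genes in each library of the Control and TMAO groups (x axes), with the mean and SD of each group. Naip5, Naip6, Nlrp1a and Nlrp1b lie lower in every TMAO library than in any Control library, Mefv, Casp4 and Gsdme lie higher, and Naip2, Nlrc4 and Aim2 overlap between the groups.

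The flagellin sensors Naip5 and Naip6 fell, whereas Naip2, which recognises the inner rod of bacterial type III secretion systems, and their common partner Nlrc4 did not pass the test. Naip5 measured 49.2, 46.3 and 55.5 CPM in the Control libraries and 29.7, 26.0 and 26.7 CPM in the TMAO libraries. Every TMAO library was below every Control library, and the log2 fold change was -0.87 (SE 0.10, edgeR adjusted p = 3.67e-05), or 1.83-fold lower. Naip6 measured 47.1, 41.6 and 60.2 CPM in Control and 19.4, 12.2 and 13.5 CPM in TMAO. Its groups were further apart than those of Naip5, with a log2 fold change of -1.72 (SE 0.19, edgeR adjusted p = 2.03e-05), or 3.30-fold lower.

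Naip2 was the most abundant of the sensors by CPM in all 6 libraries, at 156, 149.5 and 181 CPM in Control and 160.1, 139 and 159 CPM in TMAO. Its groups overlapped (log2 fold change -0.08, 95% interval -0.31 to 0.14, edgeR adjusted p = 0.479). Nlrc4, which forms the wheel-shaped complex that a NAIP protein nucleates, measured 29.8, 26.3 and 31.1 CPM in Control and 30.8, 28.9 and 28.0 CPM in TMAO. Its values overlapped as well (log2 fold change 0.01, 95% interval -0.21 to 0.23, edgeR adjusted p = 0.944). Naip1, the sensor of the secretion needle and not one of the 10 genes, was at 2.34 ± 0.471 CPM in Control and 2.35 ± 0.350 CPM in TMAO (mean ± SD, n = 3 per group).

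The NAIP genes are tandem copies, and counting may have split or dropped reads from stretches they share. In the GENCODE transcripts, 15.8% of the 100-base windows of the longest Naip5 transcript occur in another NAIP gene, against 6.24% for Naip6 and 4.45% for Naip2. Naip5 and Naip6 shared 6.44% of the windows of Naip5 and 4.89% of those of Naip6. A sum over Naip1, Naip2, Naip3, Naip5 and Naip6 is not affected by a split among these 5 rows. Reads shared with other copies, such as the pseudogene row Naip3-ps1, are not covered by it. That sum was 255, 240.4 and 299 CPM in Control and 212, 179 and 202 CPM in TMAO, with a log2 fold change of -0.42 (SE 0.11, edgeR adjusted p = 0.00517). After removal of a trend on transcript length, described below, the sum was not called (log2 fold change -0.04, edgeR adjusted p = 0.62).

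Within that sum, Naip2 made up 61.2%, 62.2% and 60.5% of the counts in Control and 75.5%, 77.5% and 78.7% in TMAO. Naip6 went from 18.5%, 17.3% and 20.2% to 9.15%, 6.80% and 6.67%. The counts of the family were therefore divided differently among its rows, with Naip2 taking a larger share in every TMAO library. A split or loss of shared reads does not cancel in such shares or in the ratios below, and its part was not tested. The count ratio of Naip2 to Naip5 in the same library, in which library scaling cancels, was 3.17, 3.23 and 3.25 in Control and 5.40, 5.33 and 5.98 in TMAO. The ratio of Naip6 to Naip5 was 0.957, 0.899 and 1.08 in Control and 0.654, 0.468 and 0.506 in TMAO. Neither ratio overlapped between groups, and each gave p = 0.1 in an exact two-sided permutation test (0.1 adjusted over 4 ratios), the smallest p that 3 against 3 libraries allow.

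**Figure D2:**
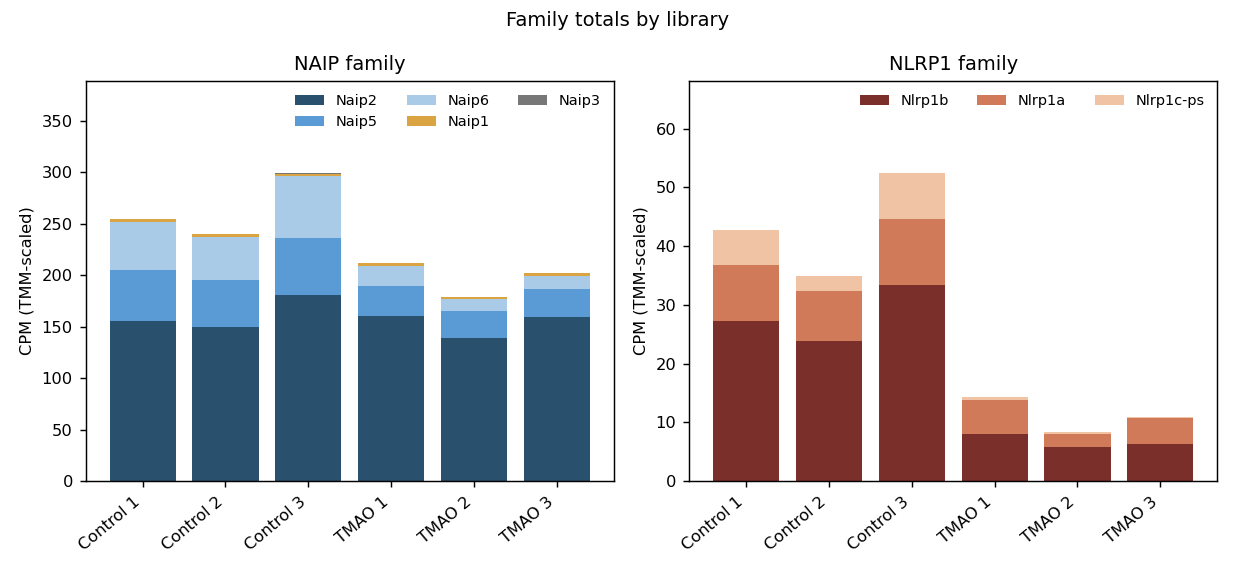
Stacked TMM-scaled CPM (y axes, from 0) of the NAIP genes (left) and NLRP1 genes (right) in each Control and TMAO library (x axes). Naip2 stays between 139 and 181 CPM while the Naip5 and Naip6 segments are shorter in TMAO, and all NLRP1 segments are shorter in TMAO.

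The start regions of Naip2 and Naip5 resemble each other and are shown together with that of Naip6. Sequences run from 250 bases before to 50 bases after the start site, 5′ to 3′ on the gene's strand, from RefSeq on build GRCm38.p6, which is not the build of the counts. Promoters of all 10 genes were found in the RefSeq table. For Naip2 and Naip5 the first bases after the RefSeq start were not found near the beginning of a GENCODE transcript, so the start sites of this pair depend on the annotation. Capitals mark the stretch that aligned between Naip2 and Naip5, in which 123 of 134 positions were identical.

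Naip2, chr13:100202073-100202372, minus strand: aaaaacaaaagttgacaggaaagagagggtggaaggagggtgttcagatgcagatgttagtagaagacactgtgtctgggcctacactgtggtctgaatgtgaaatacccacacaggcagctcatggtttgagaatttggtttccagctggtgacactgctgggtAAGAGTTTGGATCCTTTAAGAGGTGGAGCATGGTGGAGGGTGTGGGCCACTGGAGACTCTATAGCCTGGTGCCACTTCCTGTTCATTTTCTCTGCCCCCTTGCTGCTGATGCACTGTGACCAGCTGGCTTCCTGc

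Naip5, chr13:100247287-100247586, minus strand: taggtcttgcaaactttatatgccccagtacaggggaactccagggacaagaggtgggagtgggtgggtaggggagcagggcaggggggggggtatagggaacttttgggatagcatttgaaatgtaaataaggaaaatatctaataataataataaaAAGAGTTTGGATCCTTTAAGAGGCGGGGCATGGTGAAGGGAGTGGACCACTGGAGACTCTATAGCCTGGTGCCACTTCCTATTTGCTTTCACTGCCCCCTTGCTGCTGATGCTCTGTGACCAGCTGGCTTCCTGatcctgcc

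Naip6, chr13:100316567-100316866, minus strand: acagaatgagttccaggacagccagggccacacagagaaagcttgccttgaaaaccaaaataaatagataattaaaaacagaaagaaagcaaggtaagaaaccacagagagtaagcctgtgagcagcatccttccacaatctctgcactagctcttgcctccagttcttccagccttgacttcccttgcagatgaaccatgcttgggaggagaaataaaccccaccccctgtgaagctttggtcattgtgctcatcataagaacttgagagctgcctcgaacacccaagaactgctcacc

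The aligned stretch runs from 85 bases before to 49 bases after the start of Naip2 and from 92 bases before to 42 bases after that of Naip5. The best local alignment reached no further upstream. The best local alignment of Naip6 with Naip2 covered 19 columns and with Naip5 30 columns. Whether the start regions bear on the differences in level was not tested.

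Both NLRP1 genes fell, and of the 10 genes Nlrp1b had the largest fold difference. Nlrp1b encodes the sensor that anthrax lethal factor cleaves in some mouse strains. Its level was 27.2, 23.8 and 33.3 CPM in Control and 8.05, 5.75 and 6.39 CPM in TMAO. The groups were far apart (log2 fold change -2.06, SE 0.17, edgeR adjusted p = 2.55e-06), a 4.17-fold difference. Nlrp1a, a copy close to it on chromosome 11, measured 9.52, 8.60 and 11.4 CPM in Control and 5.80, 2.28 and 4.33 CPM in TMAO. All TMAO libraries were below all Control libraries, but they varied among themselves more than for any other sensor in relation to the mean, TMAO library 2 being the lowest (log2 fold change -1.24, SE 0.27, edgeR adjusted p = 0.00227). Without that library the log2 fold change was -0.95 (edgeR adjusted p = 0.0011).

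The third copy, the pseudogene Nlrp1c-ps, went from 5.40 ± 2.68 CPM to 0.329 ± 0.155 CPM (log2 fold change -4.01, edgeR adjusted p = 3.51e-05). Shared reads are a smaller concern here than in the NAIP genes, since 0.08% of the 100-base windows of Nlrp1a occur in another NLRP1 gene. The sum of the 3 rows was 42.8, 34.8 and 52.4 CPM in Control and 14.4, 8.31 and 10.9 CPM in TMAO (log2 fold change -1.95, SE 0.20, edgeR adjusted p = 1.43e-05). The count ratio of Nlrp1a to Nlrp1b was 0.349, 0.362 and 0.341 in Control and 0.721, 0.397 and 0.678 in TMAO. All TMAO ratios were higher than the Control ratios, TMAO library 2 only slightly (exact two-sided permutation test, p = 0.1, the smallest possible, and 0.1 adjusted over 4 ratios).

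The start regions of Nlrp1a and Nlrp1b are near copies and are shown side by side. Capitals mark mismatched bases inside the aligned stretch, and bases that face a gap stay in lower case.

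Nlrp1a, chr11:71144655-71144954, minus strand: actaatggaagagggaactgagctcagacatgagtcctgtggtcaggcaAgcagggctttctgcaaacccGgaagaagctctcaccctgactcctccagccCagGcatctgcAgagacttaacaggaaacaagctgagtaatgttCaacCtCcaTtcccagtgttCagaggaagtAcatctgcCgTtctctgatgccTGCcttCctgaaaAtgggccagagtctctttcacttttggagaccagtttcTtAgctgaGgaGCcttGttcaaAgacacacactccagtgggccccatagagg

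Nlrp1b, chr11:71230684-71230983, minus strand: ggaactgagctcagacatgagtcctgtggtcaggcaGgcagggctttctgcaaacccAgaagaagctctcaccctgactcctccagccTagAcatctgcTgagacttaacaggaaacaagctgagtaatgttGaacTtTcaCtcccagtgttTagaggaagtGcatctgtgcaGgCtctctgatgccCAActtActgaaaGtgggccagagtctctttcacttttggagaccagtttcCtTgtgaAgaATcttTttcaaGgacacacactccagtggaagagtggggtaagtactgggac

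They were identical at 249 of 278 aligned columns (89.6%), with 25 mismatches and 4 gap columns. RefSeq lists a further start site for Nlrp1b, whose region did not align with that of Nlrp1a beyond 10 columns.

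Of the sensors of cytosolic DNA and of inactive RhoA, Aim2 did not pass the test and Mefv rose slightly. Aim2 measured 45.7, 44.1 and 45.7 CPM in Control and 43.3, 43.5 and 44.7 CPM in TMAO. It had the smallest spread of the 10 genes in relation to its level, the groups overlapped, and the log2 fold change was -0.04 (95% interval -0.23 to 0.14, edgeR adjusted p = 0.661). Mefv measured 92.5, 85.8 and 99.7 CPM in Control and 122, 104 and 130.5 CPM in TMAO. Every TMAO value was above every Control value, with TMAO library 2 close to Control library 3, and the log2 fold change was 0.36 (SE 0.10, edgeR adjusted p = 0.0107), or 1.29-fold higher. Without TMAO library 3, Mefv was not called (log2 fold change 0.29, edgeR adjusted p = 0.0614).

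Casp4 rose. It encodes the mouse protease known as caspase-11, which binds the lipid A part of LPS in the cytosol and cleaves gasdermin D without needing caspase-1. Its level was 48.4, 54.6 and 46.7 CPM in Control and 90.9, 104 and 86.8 CPM in TMAO. The groups were well separated, at 1.88-fold higher in TMAO (log2 fold change 0.91, SE 0.10, edgeR adjusted p = 2.63e-05). Casp1, the gene next to it among the genes tested on chromosome 9, fell (log2 fold change -0.45, SE 0.11, edgeR adjusted p = 0.0034), a call that was lost with the GC trend removed (log2 fold change -0.15, edgeR adjusted p = 0.217) and was larger after the correction for length (-0.81, 4.08e-06). The count ratio of Casp4 to Casp1 was 0.622, 0.689 and 0.591 in Control and 1.76, 1.56 and 1.60 in TMAO. The ratio rose in all TMAO libraries (exact two-sided permutation test, p = 0.1, the smallest possible, and 0.1 adjusted over 4 ratios). Casp4 and Casp1 share no 100-base window of their transcripts.

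Of 8 caspase genes tested, Casp4 was called higher and 7 were called lower, among them Casp1 with the limit given above. Across all genes tested, 33.0% were called higher and 32.7% lower. The median log2 fold change of the 8 caspase genes was -0.73. Casp8, the initiator caspase of death receptors, fell from 92.4 ± 3.46 to 61.8 ± 2.42 CPM (mean ± SD, n = 3 per group, edgeR adjusted p = 0.000136).

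The start region of Casp4, from the first of its 2 close start sites in RefSeq, is shown because it held matches to the kappa B motif, the binding sequence of the transcription factor NF-kB. Capitals mark the matches, and the first run of capitals holds 3 overlapping ones, read on both strands.

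Casp4, chr9:5308599-5308898, plus strand: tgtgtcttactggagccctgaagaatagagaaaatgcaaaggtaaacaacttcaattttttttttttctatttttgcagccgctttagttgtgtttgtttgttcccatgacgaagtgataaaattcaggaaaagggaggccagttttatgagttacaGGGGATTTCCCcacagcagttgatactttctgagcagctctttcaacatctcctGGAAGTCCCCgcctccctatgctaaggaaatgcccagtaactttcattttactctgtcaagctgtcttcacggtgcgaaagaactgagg

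Counted from the start site, the matches begin at -93, -92, -92 and -39. Among the other 9 genes, Naip5 held 1 match (at -218), and 8 held none. Of 32851 RefSeq promoters of 300 bases, 8.46% held at least 1. The core of the interferon-stimulated response element, the letters GAAA, then any 2 bases, then GAAA, was searched on both strands too. It was in no promoter of the 10 genes and in 3.44% of all promoters. A match describes the letters in this window only.

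Gsdme rose. Gasdermin E is not a sensor, but it forms a pore after it is cleaved and so can turn apoptosis into lytic death. Gsdme measured 15.0, 13.9 and 12.6 CPM in Control and 27.1, 30.2 and 29.0 CPM in TMAO. The 2 groups were clearly apart, at 2.08-fold higher in TMAO (log2 fold change 1.05, SE 0.11, edgeR adjusted p = 1.29e-05). Gsdmd, the gasdermin that caspase-1 and caspase-11 open, was at 101 ± 3.06 CPM in Control and 88.4 ± 4.73 CPM in TMAO and did not pass the test (edgeR adjusted p = 0.0664). Gsdmd was called lower with library size scaling only (log2 fold change -0.22, edgeR adjusted p = 0.049), after correction for length (-0.47, 0.000253) and with the GC trend removed (-0.35, 0.00223). Of 10 gasdermin genes listed, 6 were in the table and these 2 were abundant enough to be tested.

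Transcript length and base composition moved with the fold changes across all genes, and this touches the sensor genes. In 5 equal classes of genes by the length of the longest transcript, the median log2 fold change went from 0.49 in the shortest class to -0.53 in the longest, to which Naip5 and Naip6 belong. Nlrp1a, Nlrp1b, Nlrc4, Naip2 and Gsdme lie in the next longest class, with a median of -0.17, Aim2 and Mefv in the middle class (0.04) and Casp4 in the class after the shortest (0.25). After each library's trend on length was taken out, Naip5, Naip6, Nlrp1a and Nlrp1b were still called lower (log2 fold changes -0.51, -1.19, -1.11 and -1.84). Mefv, Casp4 and Gsdme were still called higher (0.35, 0.65 and 1.33). Nlrc4 and Naip2 were then called higher as well, at log2 fold changes of 0.30 (edgeR adjusted p = 0.00596) and 0.22 (0.023). With this correction 34.4% of all genes were called higher and 31.4% lower. With the GC trend removed, the same 7 genes were called as without a correction, 3 higher and 4 lower, against 33.6% and 31.8% of all genes.

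**Figure D3:**
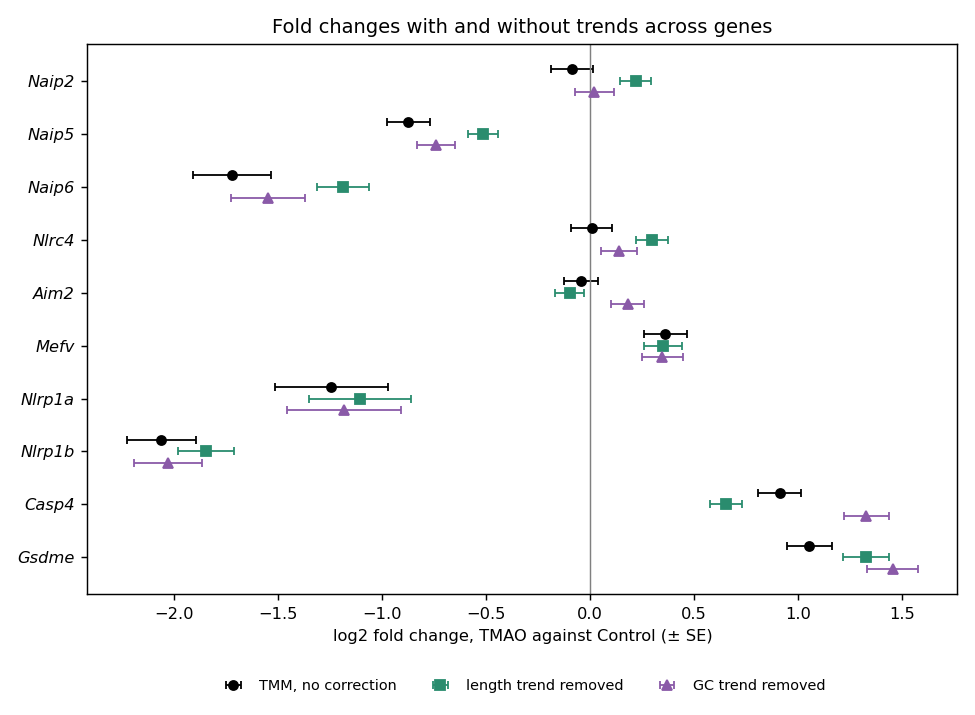
Log2 fold change of the 10 genes, TMAO against Control (x axis, points with SE), without correction and with the trend on transcript length or GC content removed (y axis, genes). With the length trend removed, Naip2 moves from below to above 0 and Nlrc4 from 0.01 to 0.30, and the 7 genes called without correction keep their side of 0.

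The order of the levels per transcript length differed between the groups. On the scale of CPM per kilobase of the longest annotated transcript, Naip2 (33.6 ± 3.43), Mefv (29.9 ± 2.25) and Casp4 (26.2 ± 2.20) were highest in Control (mean ± SD, n = 3), and the ranges of neighbours in this order overlapped. Aim2 (15.9 ± 0.326) and Naip5 (9.67 ± 0.913) followed, each apart from its neighbours. Naip6, Nlrp1b and Nlrc4 lay between 5.51 and 8.82 with overlapping ranges, and Gsdme (2.995 ± 0.255) and Nlrp1a (2.52 ± 0.360) were lowest and overlapped. In TMAO, Casp4 was highest at 49.4 ± 4.75, apart from Mefv (38.5 ± 4.31) and Naip2 (31.7 ± 2.51). Gsdme, at 6.22 ± 0.345, overlapped with Nlrc4 (6.18 ± 0.304) and both lay above Naip5 (5.28 ± 0.374), whereas Naip6, Nlrp1b and Nlrp1a were the lowest, at 2.20, 1.56 and 1.06. Casp4 thus moved from the third to the first place and Gsdme from the ninth to the fifth.

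Among 9 genes of the inflammasome core and its products, 3 rose, 4 fell and 2 did not pass the test (median log2 fold change -0.19). The shares over all genes tested, 33.0% higher and 32.7% lower, stand beside this list and the lists below. Nlrp3, the sensor in the title of the series, rose 6.87-fold, more than Casp4, Gsdme or Mefv, and Il1b rose from 15.6 to 903 CPM. The adaptor gene Pycard, which AIM2 and pyrin need to reach caspase-1, fell (log2 fold change -0.50, edgeR adjusted p = 0.0193). Its call was lost without Control library 2 (log2 fold change -0.41, edgeR adjusted p = 0.0797), without TMAO library 3 (-0.48, 0.0642), with the length trend removed (-0.37, 0.0707) and with the GC trend removed (-0.37, 0.0761).

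Of 20 genes known to regulate these sensors, 5 rose, 10 fell and 5 did not pass the test (median log2 fold change -0.20). For pyrin, the kinase gene Pkn2, whose product helps keep it inactive, fell (log2 fold change -0.50, edgeR adjusted p = 0.00617), as did Pstpip1, which encodes a pyrin-binding protein (log2 fold change -0.36, edgeR adjusted p = 0.00641). The call of Pkn2 was lost when length was corrected for (log2 fold change -0.02, edgeR adjusted p = 0.817) and with the GC trend removed (-0.22, 0.0981). Rhoa, whose inactivation pyrin detects, was at 506 ± 5.48 and 461 ± 17.4 CPM and did not pass the test (edgeR adjusted p = 0.154). After the correction for length Rhoa was called higher (log2 fold change 0.21, edgeR adjusted p = 0.0171). For NLRP1, the protease gene Dpp8 fell (log2 fold change -0.61, edgeR adjusted p = 0.00118; -0.21 and 0.0409 after the correction for length) and Dpp9 did not pass the test (55.9 ± 2.89 and 62.2 ± 11.4 CPM, edgeR adjusted p = 0.31). Dpp9 was called higher without TMAO library 2 (log2 fold change 0.29, edgeR adjusted p = 0.0247) and after the correction for length (0.53, 0.000663).

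Genes that act upstream of AIM2, the NAIP proteins and caspase-11 moved in both directions. Irf1, a transcription factor of interferon responses, rose 2.08-fold, Irf8, a transcription factor known to act on NAIP genes, 1.33-fold (edgeR adjusted p = 7.91e-06 and 0.000842). The 4 listed genes of guanylate-binding proteins, which help expose bacterial ligands, did not move together. Gbp5 rose 2.44-fold and Gbp7 fell 4.58-fold (edgeR adjusted p = 9.18e-05 and 1.53e-06), whereas Gbp2 and Gbp3 did not pass the test (log2 fold changes -0.01 and 0.15). The GTPase gene known as Irgb10 (listed as Gm12250) fell from 19.6 ± 4.35 to 5.77 ± 0.187 CPM and Zbp1, a sensor of Z-form nucleic acid, from 72.7 ± 18.4 to 12.4 ± 1.77 CPM (edgeR adjusted p = 7.80e-06 and 1.30e-06). Ifnar1 and Ifnar2, the chains of the type I interferon receptor, fell (log2 fold changes -0.74 and -0.27, edgeR adjusted p = 7.22e-05 and 0.0223), as did Tlr4, the surface receptor of LPS (log2 fold change -0.43, edgeR adjusted p = 0.00324). The call of Ifnar2 was lost without Control library 1 or 2 or TMAO library 2 or 3 (edgeR adjusted p = 0.0556, 0.0637, 0.0585 and 0.0677, at log2 fold changes of -0.29, -0.24, -0.21 and -0.28), and that of Tlr4 with the GC trend removed (log2 fold change -0.05, edgeR adjusted p = 0.618).

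Of 23 other NLR genes listed, 10 were tested, of which 4 rose and 4 fell (median log2 fold change 0.08). Besides Nlrp3, Nod2, a sensor of bacterial peptidoglycan, rose from 11.8 ± 0.982 to 32.0 ± 3.65 CPM. Nlrp10 fell from 7.83 ± 0.598 to 1.55 ± 0.351 CPM and Nlrc5, an activator of MHC class I genes, from 47.9 ± 5.97 to 16.1 ± 2.92 CPM (edgeR adjusted p = 3.40e-06, 2.77e-06 and 6.28e-06).

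Each of the 10 genes was also set beside the gene most like it over the 6 libraries, by the mean absolute difference of log2 CPM after each gene was centred on its own mean. The closest matches were Yy1 to Aim2 (0.0133), Katnal1 to Naip5 (0.0149) and Heatr1 to Nlrc4 (0.0150), and the differences of the other 7 genes to their nearest gene ran from 0.0263 to 0.0447. The nearest gene of Nlrp1b was Cpne3 (0.0351) and that of Casp4 was Sft2d3 (0.0379). The log2 fold changes of these 5 genes were -0.05, -0.93, 0.01, -1.99 and 1.04, each near that of the sensor gene it was matched to, as the measure requires.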

How the data were processed

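The members, the gene lists and the tests were chosen with earlier results of these data known. Per the labels' protocols, RNA was poly(A)-selected and paired-end libraries were sequenced on 1 of 2 named instruments, not assigned per library. The authors deposited raw counts per Ensembl gene, on build GRCm39 according to the submitters' processing notes. The counting tool and strand setting were not given in the sources used here. No member shares exon bases with another gene in GENCODE M21 (GRCm38), which gave symbols for 25386 of 25751 IDs and the lengths and GC content.

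Sample descriptions gave each column's sample, and titles its group. No pair of libraries in a group agreed within sampling noise (chi-square per degree of freedom 13.0 to 65.6). edgeR 4.0.16 (R 4.3.3) ran filterByExpr (minimum count 10), TMM and the quasi-likelihood F test, TMAO against Control without covariates, adjusted by Benjamini-Hochberg over 14626 genes at 0.05. CPM is TMM-scaled, errors are SD over 3 libraries, and a SE is the estimate over the square root of its F. Trends were removed as lowess offsets per library. Genes were named by a rule: all members, list genes whose role bears on a member, and the gene nearest to each member, not all printed. Otherwise the rule took the 2 genes of a list with the smallest p, and so used measured values. Nlrp3, Nlrp10, Nod2 and Nlrc5 had the smallest p among the 10 other NLR genes tested. Alternatives were DESeq2 1.42.0, limma-voom (limma 3.58.1), other normalizations, filters and moderations, a replicate block, and each library left out. The fit was tested on simulated data for TMAO against Control (14338 genes). It found 64% of 50 changes of 1.5-fold and 90% of 50 changes of 2-fold, and called 0.106% of 14138 unchanged genes. In the data, 65.7% of genes were called and trends on length and GC were present, which the simulation did not hold. Its rates therefore need not apply to the data. Results for some listed genes are not reported here.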

Additional observations from a re-analysis of the deposited data

How the results depend on the processing

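Over 21 alternatives, Naip5, Naip6, Nlrp1a and Nlrp1b were called lower and Casp4 and Gsdme higher in all 21, and the number of sensor genes called lower was 4 throughout. The NLRP1 family sum was also called in all 21. Tested against a fold of 1.5, 5184 genes were called (2630 higher, 2554 lower), 2 sensor genes were called higher, and the NAIP family sum (log2 fold change -0.42) lost its call. Without the length trend, 5 sensor genes were called higher, also with the replicate block added (5). The NAIP family sum was then at -0.0436 and, with the block, -0.0424, Naip2 at 0.22 in both and Rhoa at 0.21 in both, and the cause was not tested. With the GC trend removed, the log2 fold changes of Aim2 (0.18), Naip2 (0.021), Rhoa (0.0749) and Dpp9 (-0.0428) turned without a call. Nlrc4 and Naip1, both near 0, turned with library size only (-0.0218 and -0.0176) and with no count filter (-0.0125 and -0.0134). Gbp2, also near 0, turned with upper quartile factors (0.0175), limma-voom (0.0019), the replicate block (4e-04) and the GC trend removed (0.0865), without a call. With each library left out in turn, Gbp2 ran from -0.144 to 0.1028, Nlrc4 ran from -0.0592 to 0.052, Naip1 from -0.11 to 0.18, all genes called from 8629 to 9931 and sensor genes called higher from 2 to 3. DESeq2 and limma-voom changed no call of a sensor gene. Same-numbered libraries correlated in their deviations from the group means at 0.0781, 0.255 and -0.152. Control libraries 1 and 2 correlated best with their own number and Control library 3 did not. With 3 libraries per group, these values cannot decide whether the numbers pair them. With the replicate block, 9723 genes were called, and 7 sensor genes as without it. The lowest count of a sensor gene in any library was 83 (Nlrp1a in TMAO library 2), and an effect of depth was not tested.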
